A study of Mus musculus with 6 samples.

Results

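Smooth muscle gives the bladder wall its power to contract. Here 34 genes of its contractile apparatus, cytoskeleton, receptors and regulators were followed in the bladders of Klf5-deleted and control mouse embryos. The members were listed by symbol, all 34 of them were found on the array, and they made up 34 of the 19938 genes that had a single symbol. RNA came from whole bladders of embryos at E14.5, in mid-gestation, with 3 samples per genotype and a pool of 2 bladders in each sample. The Klf5-deleted embryos were labelled Klf5 ∆/∆, a deletion of Klf5 on both alleles, and the controls were labelled Klf5+/+ShhGfpCre+, so that they had intact Klf5 alleles and carried Cre recombinase under the control of Shh. Klf5 is a zinc-finger transcription factor, and the study's title asks about its need when the urothelium, or bladder lining, matures. Shh is made by this epithelium, so the smooth muscle around it was taken to keep Klf5 in the Klf5-deleted embryos. The labels do not give the Cre status of the Klf5-deleted embryos in a field of its own. They name the tissue as bladder urothelium in one field and as whole bladder in another, and the embryonic day is not written the same way throughout.

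Smooth muscle contracts when calcium activates myosin light chain kinase, which phosphorylates the regulatory light chain of myosin and lets myosin pull on actin. A phosphatase reverses this step, and caldesmon, calponin and tropomyosin act on the actin filament. Serum response factor and its cofactor myocardin switch on most genes of this apparatus by binding the CArG box, a short motif of A and T bases between a pair of C and a pair of G bases. In the embryonic bladder the muscle arises from mesenchyme under the influence of Shh from the urothelium, and in the mature bladder it is driven by acetylcholine and ATP from nerves.

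The members were matched to RefSeq promoters of the mouse assembly GRCm38.p6, each reaching from 250 bases before to 50 bases after a gene's start, and 30 of 34 members were matched, all but Actg2, Myh11, Myocd and Tagln. A CArG box stood in the window of 6 of these 30 members, or 20%, namely Srf, Myl9, Myl6, Vcl, Fhl1 and Fhl2, against 1.81% of the 27025 genes with a promoter. With 1 of the 6 core bases allowed to be C or G, a search chosen after the data were seen, 9 of 30 members and 11.3% of all genes held a match. The motif reads alike on both strands. A match is a run of letters and not a measured binding site. The stretches are shown because they carry the motif of the factor that the smooth muscle genes share, with the motif in capitals and 10 bases on each side. The Acta2 stretch holds the motif with a C among its core bases.
Srf (chr17:46556205-46556254, minus strand): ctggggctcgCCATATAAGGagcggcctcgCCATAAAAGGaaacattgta
Myl9 (chr2:156775293-156775322, plus strand): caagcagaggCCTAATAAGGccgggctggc
Myl6 (chr10:128493040-128493069, minus strand): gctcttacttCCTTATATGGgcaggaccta
Vcl (chr14:20929161-20929190, plus strand): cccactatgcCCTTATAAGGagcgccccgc
Fhl1 (chrX:56779571-56779600, plus strand): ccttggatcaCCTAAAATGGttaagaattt
Fhl2 (chr1:43163973-43164002, minus strand): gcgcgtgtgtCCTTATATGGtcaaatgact
Fhl2, another start (chr1:43196838-43196867, minus strand): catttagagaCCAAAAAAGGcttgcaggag
Acta2 (chr19:34255438-34255467, minus strand): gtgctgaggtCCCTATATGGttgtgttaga
The Srf window held the motif in a pair, which began 82 and 62 bases before the start of the gene. The Fhl2 matches began 31 and 96 bases before separate starts, the Myl6 match 50 before its start, the Fhl1 match 102, the Myl9 match 161 and the Vcl match 227. In Acta2 the related motif began 84 bases before the start, as shown, and another such match began 34 bases before it. The 6 members with a CArG box differed by -0.32 to -0.11 between genotypes on the log2 scale, and none of them passed the test described next.

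Values are log2 expression levels from the array, on which a difference of 1 is a doubling. Differences are Klf5-deleted minus control, and a gene was called when limma gave an adjusted p under 0.05 over all 19938 genes. Klf5 itself read 10.12, 10.34 and 10.23 on Klf5-deleted arrays 1, 2 and 3, below every control at 10.84, 10.63 and 10.97 (difference -0.59, SE 0.10, adjusted p = 0.0381 by limma). That call was lost when any array other than control 2 was left out, with an adjusted p by limma of up to 0.156. The arrays of all 19938 genes had medians of 8.43 to 8.50. On control 2 the placental transcript Tpbpa read 13.13, against 6.18 to 10.34 elsewhere.

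Of the 34 smooth muscle genes, 1 fell in the Klf5-deleted bladders and none rose. The gene that fell was Synpo2, which codes for synaptopodin 2, a protein that bundles actin filaments at dense bodies and Z discs. One fall among 34 genes is 2.94%, beside 1.59% of all genes that fell and 0.386% that rose, so the share of calls lay near that of all genes. Most members nevertheless had a lower mean in the Klf5-deleted group: 30 of 34, against 53.5% of all genes. At an unadjusted p under 0.05 by limma 15 members lay lower, where 8.08% of all genes did, and 0 lay higher, where 6.34% of all genes did. The groups did not overlap for 16 members, each with the Klf5-deleted arrays below the controls, beside 11.8% of all genes; the opposite order occurred in 0 members and 8.67% of all genes. The members were proposed with earlier results of these arrays known, so these shares describe the list and carry no test of their own. In whole bladders, fewer smooth muscle cells and less RNA per smooth muscle cell cannot be told apart.

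The median difference of the 34 genes was -0.22, with quartiles of -0.32 and -0.09. Over all genes the median was -0.01, with quartiles of -0.09 and 0.08. The members ranged from -0.81 for Chrm3 to 0.40 for Chrm2, both of them muscarinic acetylcholine receptors. The SE of a member's difference had a median of 0.10. Centring each array on the median of all genes or on its housekeeping genes added 0.04 or 0.06 to every difference, and 27 of 34 members were then lower. Without control 1 the median was -0.15, with 29 of 34 members lower, and without both arrays numbered 1 it was -0.09, with 28 of 34 lower.

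**Figure D1:**
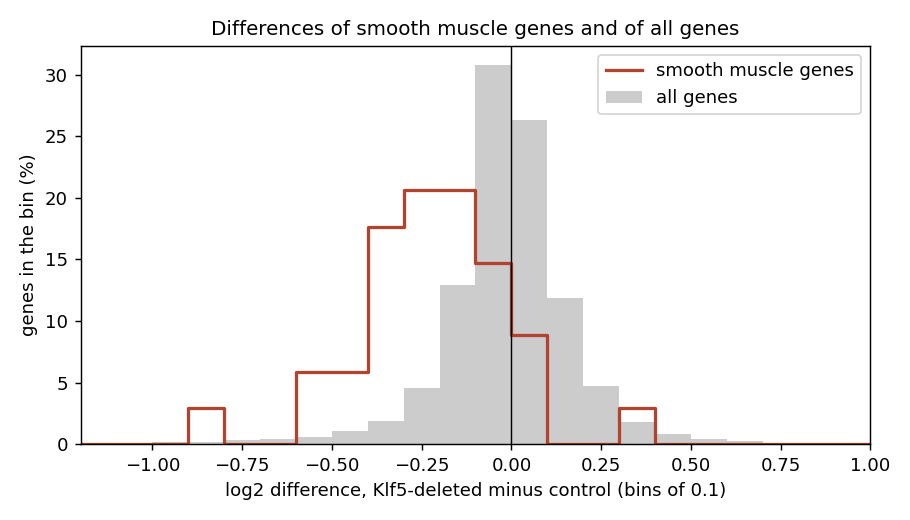
The horizontal axis is the log2 difference, Klf5-deleted minus control, in bins of 0.1, and the vertical axis the percentage of genes in each bin, for all 19938 genes (grey bars) and the 34 smooth muscle genes (red line). Values below -1.2 or above 1 are not drawn; the smooth muscle genes centre on -0.22 and all genes on -0.01.

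**Figure D2:**
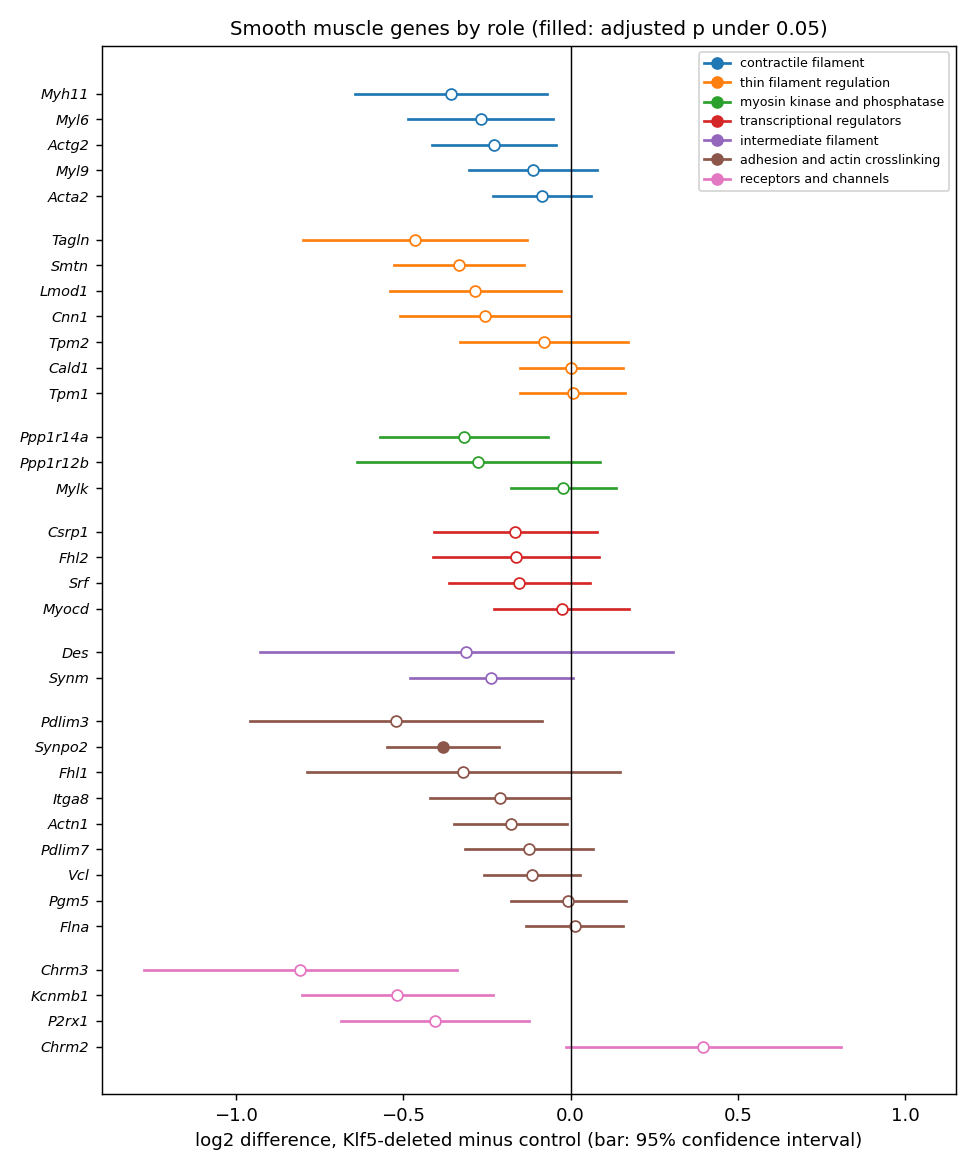
Each point is the log2 difference of 1 smooth muscle gene, Klf5-deleted minus control, with its 95% confidence interval from limma, coloured by role. Synpo2, the filled point, is the member past an adjusted p of 0.05, and Chrm2 is the member farthest to the right at 0.40.

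The 5 genes of the contractile filaments, the actins and myosin subunits, all had lower means in the Klf5-deleted group, with a median difference of -0.23, and none passed. Acta2, the smooth muscle alpha actin that appears early in muscle differentiation, read 13.97, 14.05 and 14.03 on Klf5-deleted arrays 1 to 3 and 14.16, 14.08 and 14.07 on the controls. The groups did not overlap, but they were separated by a narrow gap: the difference was -0.08 (95% confidence interval -0.23 to 0.06, adjusted p = 0.614 by limma). The highest value of any feature on the 6 arrays was 14.65, so Acta2 read close to the top of the scale, where array signals can flatten. Whether this affected the difference of Acta2 was not tested. Actg2, the gamma actin of enteric and urinary smooth muscle, read 12.95, 13.10 and 13.06 in the Klf5-deleted samples and 13.38, 13.24 and 13.17 in the controls. Again every Klf5-deleted array lay below every control, with a difference of -0.23 (SE 0.08, adjusted p = 0.247 by limma). The actin genes are close paralogs, which array probes may not separate fully.

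Myh11, the myosin heavy chain that defines mature smooth muscle, read 12.43, 12.86 and 12.86 in the Klf5-deleted and 13.13, 13.10 and 12.99 in the control samples. Klf5-deleted 1 was the lowest array by a wide step, and the groups did not overlap. The difference was -0.36 (SE 0.12, adjusted p = 0.246 by limma), and -0.22 without Klf5-deleted 1. Myl6, the essential light chain shared by smooth muscle and non-muscle myosin, read 12.83, 13.12 and 13.05 against 13.36, 13.21 and 13.23 in controls. Its 6 array features had differences between -0.28 and -0.23 and so gave nearly the same value. Myl9, the regulatory light chain that the kinase phosphorylates, differed by -0.11 (SE 0.08), with overlapping groups, and by -0.04 without control 1.

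Among the 7 genes that act on the thin filament, 4 had a negative difference of some size and 3 were near 0, and none passed. Tagln, which codes for the actin-binding protein transgelin or SM22, read 11.31, 11.37 and 11.63 in the Klf5-deleted and 12.19, 11.84 and 11.68 in the control samples. The controls spread over more than the gap between the groups, which did not overlap; the difference was -0.47 (SE 0.14, adjusted p = 0.195 by limma). Cnn1, the calponin of smooth muscle, read 12.51, 12.75 and 12.74 against 13.11, 12.86 and 12.80. The order of the groups was the same, with a difference of -0.26 (SE 0.11, adjusted p = 0.341 by limma), and -0.16 without control 1. Smtn, which codes for smoothelin, a protein of contractile smooth muscle cells, read 11.49, 11.44 and 11.60 against 11.98, 11.80 and 11.75. Its SD was 0.08 in the Klf5-deleted group and 0.12 in controls, and its difference of -0.33 (SE 0.08) had an adjusted p of 0.114 by limma. Lmod1, the leiomodin that nucleates actin filaments, differed by -0.29 (SE 0.11), and its groups met at 8.71. The tropomyosins and caldesmon were at nearly equal means: Tpm1 differed by 0.01, Tpm2 by -0.08 and Cald1 by 0.00. Their 95% confidence intervals were -0.15 to 0.16, -0.33 to 0.17 and -0.15 to 0.16. Tpm1 and Cald1 each turned to the other sign in some fits that left out 1 array, as did Tpm2.

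Of the enzymes that set myosin phosphorylation, the kinase and an inhibitor of the phosphatase gave different values. Mylk, the gene of myosin light chain kinase, differed by -0.02 (95% confidence interval -0.18 to 0.13). Ppp1r14a, which codes for CPI-17, the inhibitor of myosin phosphatase, read 10.70, 10.78 and 10.67 in the Klf5-deleted and 11.28, 10.89 and 10.95 in the control samples. The Klf5-deleted arrays lay close together and below all controls, and the difference was -0.32 (SE 0.11, adjusted p = 0.238 by limma). Without control 1, the highest array, it was -0.20. Ppp1r12b, a regulatory subunit of that phosphatase, differed by -0.28 (SE 0.15) on the feature with the highest mean. Its 7 features disagreed, with differences from -0.28 to 0.22 and a mean of 0.02, so no direction is given for this gene. The counts of members with a lower mean include Ppp1r12b through its highest feature. With all features of a gene averaged, 29 of 34 members were lower, with a median of -0.195.

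The transcriptional regulators differed little. Myocd, the cofactor that commits cells to smooth muscle, read 13.16, 12.90 and 13.02 in the Klf5-deleted and 13.11, 12.95 and 13.10 in the control samples. The groups overlapped fully, with a difference of -0.03 (95% confidence interval -0.23 to 0.17, adjusted p = 0.933 by limma). This sign turned when arrays were centred on the median of all genes or on housekeeping genes, and with array weights. Srf read 11.21, 11.01 and 11.18 against 11.43, 11.23 and 11.20 in the controls. Klf5-deleted 1 read above control 3, and the difference was -0.15 (SE 0.09, adjusted p = 0.51 by limma), and -0.08 without control 1. Csrp1 and Fhl2, LIM-domain proteins that take part in smooth muscle gene control and bind the cytoskeleton, both differed by -0.16 (SE 0.10 and 0.11), and by -0.10 and -0.06 without control 1.

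**Figure D3:**
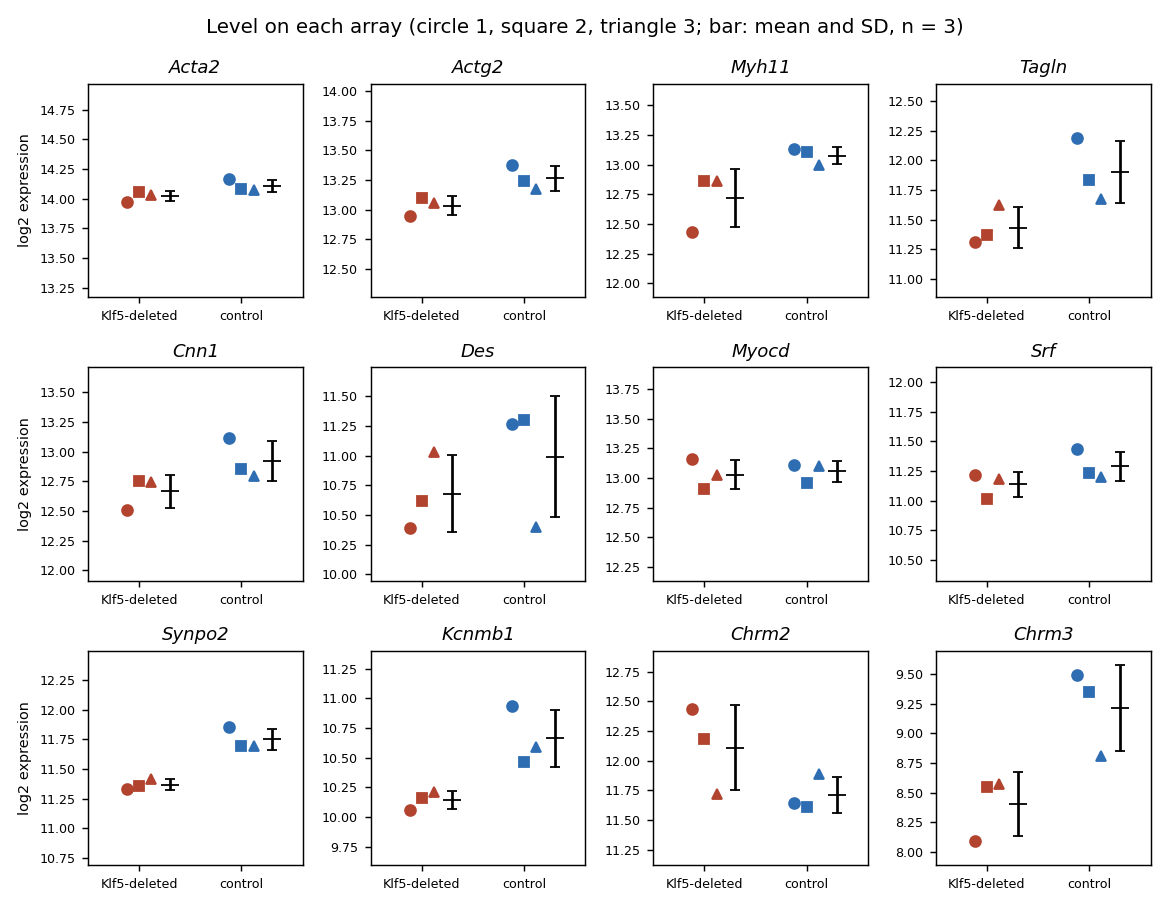
Each panel shows the log2 expression of 1 gene on the vertical axis, which spans the same width of 1.8 in every panel, for the 3 Klf5-deleted arrays (red) and the 3 controls (blue), with the mean and SD as a black bar. The groups are apart for Synpo2, Kcnmb1 and Chrm3, and overlap for Myocd, Des and Chrm2; the mean of Chrm2 is higher in the Klf5-deleted group.

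Neither of the intermediate filament genes passed, and Des varied more within the groups than between them. Des, the gene of desmin, which links the contractile units of all muscle types, read 10.39, 10.62 and 11.03 in the Klf5-deleted and 11.27, 11.30 and 10.40 in the control samples. Control 3 read like Klf5-deleted 1, and the difference of -0.31 had an SE of 0.26 (adjusted p = 0.668 by limma). It was -0.60 without control 3 and -0.03 without both arrays numbered 1. Synm, which codes for synemin, a partner of desmin, differed by -0.24 (SE 0.10), also with control 3 as the lowest control at 7.42. On the Klf5-deleted arrays Synm read 7.19, 7.38 and 7.48, below the median of all features there, 7.74 to 7.80.

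The largest role group held 9 genes of adhesion sites and actin crosslinking, of which Synpo2 fell, none rose and 8 did not pass, with a median difference of -0.18. Synpo2 read 11.33, 11.35 and 11.42 in the Klf5-deleted and 11.85, 11.70 and 11.69 in the control samples. Both groups were tight, with an SD of 0.05 and 0.09 (n = 3), and the lowest control lay above the highest Klf5-deleted array. The fall was 1.30-fold, or -0.38 on the log2 scale (SE 0.07), and limma's adjusted p was 0.0457. The size held at -0.41 to -0.33 in the fits that left out 1 array, but none of these 6 fits called it, with adjusted p by limma of 0.0756 to 0.181. It was also not called with arrays centred on the median of all genes (adjusted p = 0.073 by limma) or on housekeeping genes (adjusted p = 0.0755 by limma). The promoter window of Synpo2 held no CArG box.

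Pdlim3, an actinin-binding protein of muscle Z discs and dense bodies, read 10.99, 11.52 and 11.70 against 12.10, 11.96 and 11.72 in controls. The highest Klf5-deleted array and the lowest control nearly met, and the difference of -0.52 (SE 0.19) did not pass, with an adjusted p of 0.263 by limma. Without Klf5-deleted 1 it was -0.32. Actn1, which codes for alpha-actinin 1, an actin crosslinker, read 12.24, 12.26 and 12.37 against 12.56, 12.44 and 12.41. Vcl, which codes for vinculin of adhesion plaques, read 12.14, 12.16 and 12.21 against 12.34, 12.24 and 12.27. Pdlim7, another PDZ and LIM protein of the actin cytoskeleton, read 11.52, 11.48 and 11.56 against 11.80, 11.57 and 11.57. In these genes the Klf5-deleted arrays lay below all controls by small steps, with differences of -0.18, -0.11 and -0.12. Pdlim7 differed by -0.05 without control 1.

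The other adhesion genes had overlapping groups. Itga8, the integrin alpha 8 chain of smooth muscle and mesenchyme, differed by -0.21 (SE 0.09, adjusted p = 0.335 by limma). Fhl1, a LIM protein of muscle, differed by -0.32 with SE 0.20, and its lowest control was again control 3, at 11.31. Leaving out 1 array moved Fhl1 between -0.50 and -0.16, and without both arrays numbered 1 it was -0.04. Flna, the widely expressed actin crosslinker filamin A, and Pgm5, which codes for aciculin of adherens-type junctions, differed by 0.01 and -0.01. Their 95% confidence intervals were -0.13 to 0.16 and -0.18 to 0.16, and both turned sign in some fits that left out 1 array.

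The 4 receptor and channel genes held the members with the lowest and the highest difference. Chrm3, the muscarinic receptor that triggers detrusor contraction, read 8.09, 8.55 and 8.58 in the Klf5-deleted and 9.49, 9.35 and 8.81 in the control samples. Every Klf5-deleted array lay below every control, and control 3 was the lowest control. The difference was -0.81 (95% confidence interval -1.28 to -0.34, adjusted p = 0.111 by limma). Without control 3 it was -1.01 with an adjusted p of 0.0474 by limma, and in the other fits the adjusted p by limma ran up to 0.578, the value without both arrays numbered 1, where the difference was -0.52. Chrm2, the more abundant muscarinic receptor of the bladder in adults, read 12.43, 12.18 and 11.72 against 11.64, 11.61 and 11.89. Klf5-deleted 3 lay below control 3, so the groups overlapped, and the difference was 0.40 (SE 0.18, adjusted p = 0.362 by limma). It was 0.24 without Klf5-deleted 1, 0.59 without Klf5-deleted 3 and 0.20 without both arrays numbered 1, and no fit that was run called it.

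P2rx1, the ATP-gated channel that carries the purinergic signal of bladder nerves, read 7.15, 7.11 and 7.08 against 7.68, 7.64 and 7.23 in the controls. Its Klf5-deleted values lay below the median of all features on those arrays, 7.74 to 7.80. Whether so low a level affected the SD was not tested. The Klf5-deleted arrays agreed within an SD of 0.04, the controls had an SD of 0.25, and the difference was -0.41 (SE 0.12, adjusted p = 0.179 by limma). Without control 3 it was -0.55 with an adjusted p of 0.0298 by limma. No other fit that was run called P2rx1: with another array left out the adjusted p by limma reached 0.399, at -0.32 without control 1, and without both arrays numbered 1 it was 0.651. Kcnmb1, the beta subunit that tunes the calcium-activated potassium channel of smooth muscle, read 10.06, 10.16 and 10.21 against 10.93, 10.46 and 10.59. Both groups kept apart, with a difference of -0.52 (SE 0.12, adjusted p = 0.0968 by limma), and no fit that was run called it.

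The arrays differed in how many members they held at an extreme. Klf5-deleted 1 was the lowest of the 6 arrays for 23 of 34 members, where it was the lowest for 16.8% of all genes. Control 1 was the highest for 29 of 34 members, against 21.1% of all genes. The mean level of the 34 genes was 11.38, 11.47 and 11.53 on Klf5-deleted arrays 1, 2 and 3 and 11.81, 11.66 and 11.56 on the controls. These means did not overlap, and Klf5-deleted 3 and control 3 lay closest. In the fit without both arrays numbered 1, chosen after the data were seen, 0 members were called and 44 of all genes were.

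The members were split by judgement into a set taken as mostly of smooth muscle and a set shared with striated muscle or many tissues. The split is not sharp: the first set includes Synpo2, also a protein of Z discs, and Itga8, also a gene of mesenchyme. Whether the difference between the sets is particular to smooth muscle was not tested. The 15 genes placed in the first set, such as Acta2, Myh11, Myocd, Cnn1 and Chrm3, had a median difference of -0.32, and 14 of them had a lower mean in the Klf5-deleted group. The 19 genes of the second set, such as Srf, Des, Tpm1, Flna and Vcl, had a median of -0.15, with 16 lower. On the arrays, the mean of the first set was 11.15 to 11.25 in the Klf5-deleted and 11.38 to 11.64 in the control group, without overlap. The second set ranged from 11.56 to 11.76 and from 11.69 to 11.95, with overlap.

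Markers of skeletal muscle, which shares several members, lay the other way. All 18 of these markers had a higher mean in the Klf5-deleted group, with a median of 0.75, but none passed. At an unadjusted p under 0.05 by limma 9 of the 18 lay higher, where 6.34% of all genes did. Their mean level was 9.13 to 10.21 on the Klf5-deleted and 8.46 to 9.42 on the control arrays, with overlap, and Klf5-deleted 3 was the highest. Acta1, the skeletal actin, and Myog, the muscle regulator myogenin, differed by 0.23 and 0.89 (SE 0.29 and 0.31). Their part in the values of the shared members was not tested.

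Markers of pericytes, endothelium and fibroblasts also had mostly lower means in the Klf5-deleted group. Among 8 pericyte and vascular wall markers 6 were lower, with a median of -0.24, and the mean level was 9.66 to 9.94 in the Klf5-deleted and 9.86 to 10.16 in the control group. Pdgfrb and Rgs5, both pericyte markers, differed by 0.07 and -0.21. Of 9 endothelial markers 8 were lower, with a median of -0.20 and means of 10.36 to 10.70 against 10.64 to 10.70. Pecam1 and Cdh5, adhesion proteins of endothelium, differed by -0.03 and -0.20. Of 12 fibroblast and mesenchyme markers 10 were lower, with a median of -0.07 and means of 11.78 to 11.87 against 11.86 to 12.01. Pdgfra and Col1a1, a growth factor receptor and a collagen chain of fibroblasts, differed by 0.28 and -0.05. None of these markers passed. At an unadjusted p under 0.05 by limma 1 pericyte, 4 endothelial and 3 fibroblast markers were lower and 1 fibroblast marker was higher. Of all genes 8.08% were lower and 6.34% higher by the same measure. Whether vessels contributed to the values of Acta2, Tagln or Myh11 was not tested.

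The urothelial markers separated the genotypes: 9 of 12 fell, none rose, and their median was -1.52, with mean levels of 9.22 to 9.51 against 10.82 to 10.98. The largest falls were in the uroplakin genes Upk2, Upk1a, Upk1b and Upk3a, with differences of -3.19, -2.72, -2.35 and -1.98. Of 5 markers of interstitial cells, Gpr39 fell by 0.81 (SE 0.11, adjusted p = 0.016 by limma), where 1.59% of all genes fell. Kit, the receptor that marks such cells, differed by 0.06, and Ano1 by -0.41 (SE 0.10, adjusted p = 0.105 by limma). The 5 markers had a median of -0.04, with 3 lower and 2 higher means. At an unadjusted p under 0.05 by limma 2 of them were lower, where 8.08% of all genes were, and 0 were higher. Of the 9 measured neuron and glia markers 7 had a higher mean, with a median of 0.04, and the 5 erythroid markers had a median of 0.20, with none in either list past the threshold and 0 at an unadjusted p under 0.05 by limma. The means ran from 8.03 to 8.36 against 7.88 to 8.40 for neurons and glia, and from 11.2 to 12.0 against 10.7 to 12.3 for erythroid cells. The neuronal genes Phox2a and Ret differed by 0.04 and 0.02, and the embryonic globin genes Hbb-y and Hba-x by 0.25 and 0.40.

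The 8 measured placental and decidual markers reached a mean of 10.95 on control 2, against 5.56 to 9.14 on the other arrays. Of these 8 markers 5 had a lower mean in the Klf5-deleted group and 3 a higher one. Tpbpa and Tpbpb, products of trophoblast, differed by -1.04 and -1.39 with SE of 1.75 and 1.99. The decidual granzyme genes Gzmd, Gzme and Gzmg lay the other way, at 1.44, 1.63 and 1.31, with SE of 1.86, 1.21 and 1.29. Each of them was highest on Klf5-deleted 2, where Gzmd read 10.80 against 9.83 on control 2. Without control 2 the median of the smooth muscle genes was -0.19 and 32 of 34 had a lower mean. Without Klf5-deleted 2 the median was -0.22 and 30 of 34 had a lower mean. None of these placental and decidual genes reached an unadjusted p under 0.05 by limma. The 8 housekeeping genes had a median of 0.00 and none passed, with Actb and Rplp0 both at 0.01. At an unadjusted p under 0.05 by limma 2 were lower, B2m at -0.28 and Pgk1 at -0.20, where 8.08% of all genes were. The mean level of the housekeeping genes was 12.54 to 12.58 on the Klf5-deleted and 12.59 to 12.65 on the control arrays. These means did not overlap, and control 1 was the highest.

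**Figure D4:**
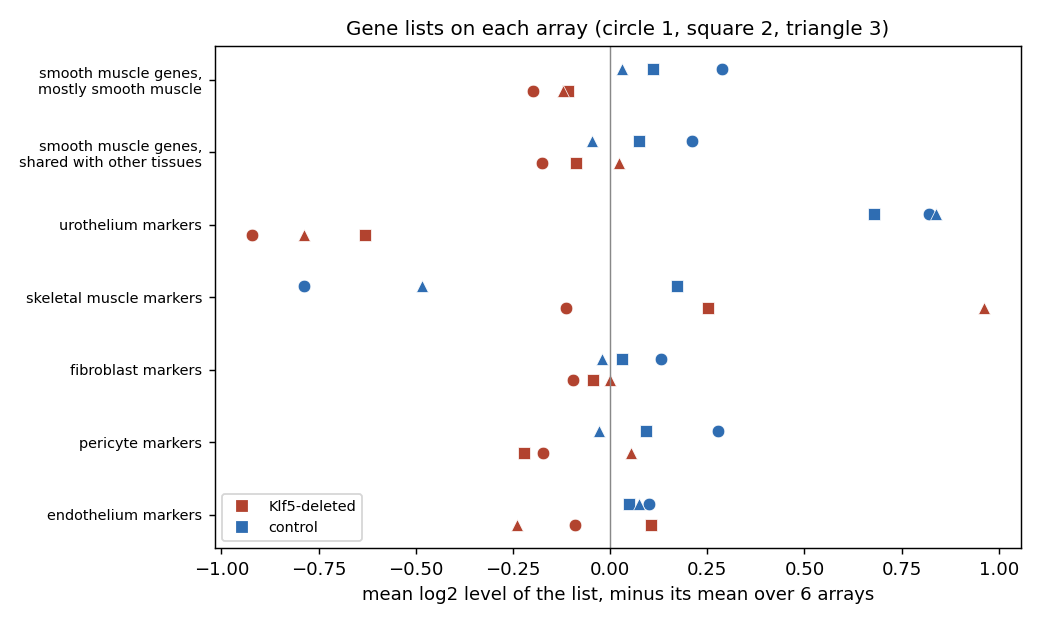
Each symbol is the mean log2 level of a gene list on 1 array, less the mean of the list over the 6 arrays, on the horizontal axis; rows are lists, red symbols the Klf5-deleted arrays and blue symbols the controls. Control 1 is the rightmost symbol in both smooth muscle sets, and the urothelial markers lie farthest apart between the groups.

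Further genes of the same pathway were read from a pair of lists that do not include the members, and none of them passed. In the list of serum response factor cofactors and other transcription factors, 8 of 16 genes had a lower and 8 a higher mean, around a median of 0.00. Mkl1 and Mkl2 (also called Mrtfa and Mrtfb), cofactors of serum response factor that respond to actin, differed by -0.14 and 0.07 (SE 0.09 and 0.11). At an unadjusted p under 0.05 by limma 2 of these 16 genes were lower and 3 higher, where 8.08% and 6.34% of all genes were. In the list of cytoskeleton, dense plaque and dystrophin complex, 26 of 38 genes were lower, with a median of -0.07. Here 11 of the 38 were lower and 1 higher at an unadjusted p under 0.05 by limma, beside the same shares of all genes. Tln1 and Zyx, proteins of adhesion plaques, differed by -0.06 and 0.02.

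A few further genes of smooth muscle are named after their values were seen. Pln, which codes for phospholamban, the inhibitor of the calcium pump of the sarcoplasmic reticulum, read 6.85, 7.83 and 7.94 in the Klf5-deleted and 9.38, 8.96 and 8.18 in the control samples. Its groups did not overlap, and its difference of -1.30 (SE 0.37, adjusted p = 0.156 by limma) exceeded that of any of the 34 members in size. Tbx18, a transcription factor of smooth muscle precursors in the urinary tract, read 10.31, 10.04 and 10.22 against 9.77, 9.33 and 9.22. It lay higher on every Klf5-deleted array, by 0.75 (SE 0.15), with an adjusted p of 0.0568 by limma that fell under the threshold in several alternative fits. Klf4, a Krüppel-like factor that holds back smooth muscle genes in cultured cells, read 9.83, 9.79 and 9.80 against 10.28, 10.17 and 10.08. It differed by -0.37 (SE 0.07, adjusted p = 0.0539 by limma), without overlap, and was called in 2 of the alternative fits.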

How the data were processed

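The authors deposited log2 expression values from Affymetrix Mouse Gene 1.0 ST arrays, 1 array per pool, made with RMA (background correction, quantile normalization and probe summary) per the submitters' processing notes. The log2 scale was inferred from the values; for its version, the authors' probe annotation and a genome build, nothing is stated in the sources used here. Of 35557 features, 21789 had a single symbol in the platform annotation, 1621 had several and 12147 were unnamed here. The feature with the highest mean over the 6 arrays stood for a gene, which left 19938 genes. All 34 members matched RefSeq by Entrez identifier.

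Genes were compared with limma 3.58.1 in R 4.3.3 (two-sided; lmFit, then eBayes with no trend) and p-values were adjusted by Benjamini-Hochberg over all genes; the script was tested on simulated data. The spread that the p-values measure is that between pools, which may be technical, and the number of arrays limits the precision. RMA compresses differences of dim features. The members and lists were chosen with earlier results of these data known. All members are named, and those with groups apart, those called and 11 fixed genes have array values. Other lists give called genes or the first 2 measured. A few more genes, such as the granzymes, Ano1, B2m and Pgk1, are named after their values were seen.

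Alternatives were leaving out each array, the replicate number as a block, array centring on all or housekeeping genes, a filter on dim genes, mean features, trended robust eBayes and array weights. Protein sequences were not used here, and 1 further list of pathway genes is not reported here.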

Additional observations from a re-analysis of the deposited data

How the results depend on the processing

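The count of smooth muscle genes that fell, 1, ranged from 0 to 2 when 1 array was left out, and was 0 with the replicate block, with either centring and without both arrays numbered 1 (an alternative chosen after seeing the data). The genes called without control 3 were Chrm3 and P2rx1. No member rose in any alternative. The median of the members ranged from -0.28 to -0.15 when 1 array was left out and was -0.094 without both arrays numbered 1. Of all genes 395 were called, 141 to 349 when 1 array was left out, 110 with the replicate block and 44 without both arrays numbered 1. Same-numbered arrays deviated from their group means with correlations across genes of 0.01, 0.03 and 0.08, so the numbers were not taken to pair the samples. Not every array correlated best with its own number.

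Klf5 differed by -0.59 (-0.68 to -0.51 when 1 array was left out, with adjusted p by limma of 0.0167 to 0.156), by -0.59 with the replicate block, -0.55 and -0.52 with arrays centred on all and on housekeeping genes, and -0.52 without both arrays numbered 1. It passed the threshold without control 2 and not in the other leave-outs, the block or either centring.

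In the lists of other pathway genes, the count of transcription genes was 1 with either centring and with array weights (Tbx18), and 2 with the dim genes left out and with trended robust eBayes (Tbx18 and Klf4). It ranged from 0 to 1 when 1 array was left out, as did the cytoskeletal count, which was 1 with trended robust eBayes (Tagln2).

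Signs turned for members with differences between -0.08 and 0.01, and for Ppp1r12b at -0.28, and the cause was not tested. With centring on all and on housekeeping genes Myocd was 0.013 and 0.034, Mylk 0.019 and 0.040, and Pgm5 0.034 and 0.054. With array weights Myocd was 0.0030 and Tpm1 -0.0071. Without both arrays numbered 1, Mylk was 0.037, Tpm2 0.084, Pgm5 0.077 and Flna -0.031. With all 7 features averaged, Ppp1r12b was 0.019. When 1 array was left out, Myocd ranged from -0.091 to 0.035, Mylk from -0.057 to 0.010, Tpm1 from -0.040 to 0.031, Tpm2 from -0.14 to 0.029, Cald1 from -0.029 to 0.050, Pgm5 from -0.044 to 0.038 and Flna from -0.018 to 0.033.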

Other observations

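Small heat shock proteins, chaperones that bind actin and desmin in muscle, were 5 genes of the cytoskeletal list and are grouped here after their values were seen. Hspb7 read 8.40, 8.79 and 9.22 in the Klf5-deleted and 10.18, 9.70 and 9.48 in the control samples, a difference of -0.98 (SE 0.24, adjusted p = 0.105 by limma). Hspb1 read 9.82, 10.08 and 10.43 against 11.37, 11.19 and 10.68, a difference of -0.97 (SE 0.21, adjusted p = 0.0721 by limma). Hspb6 differed by -0.45 (SE 0.15). In these 3 genes every Klf5-deleted array lay below every control, an order found in 11 of the 38 genes of the list and 11.8% of all genes. Which cells of the bladder these values came from was not tested. Hspb8 and Cryab differed by -0.20 and -0.30 with overlapping groups. None of the 5 genes passed over all arrays; Hspb1 passed without control 3.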
